A study of Caenorhabditis elegans with 4 samples.

Results

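Chromosome II of Caenorhabditis elegans carried 311 of the 2237 peaks in the authors' combined list of genomic regions bound by a GFP-tagged transcription factor, F23F12.9, in embryos. They were chosen by chromosome alone: every entry of the combined list on chromosome II was taken, with no filter on score, order, width or replicate support. All peaks are given by position on WormBase build WS220, 1-based and inclusive, and the lists assign them to no gene.

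The gene behind the protein is zip-8, which encodes a basic leucine zipper (bZIP) factor. Such factors bind DNA as dimers: the leucine zippers of both partners coil around each other, and the adjoining basic regions grip the DNA. Worm autosomes have a gene-dense centre with little recombination, flanked by arms that recombine more and hold more repeats. Where a factor's sites fall along a chromosome can therefore be read against this layout, although the files themselves mark no arms and no genes.

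In ChIP-seq, protein is crosslinked to DNA, the tagged protein is pulled down with an antibody, and places where sequenced fragments pile up are called as peaks. The series held 4 samples, a ChIP and an input library for each of replicates 1 and 2, all from embryos of strain OP327 grown at 20 °C, a mixed population of males and hermaphrodites fixed with 2% formaldehyde. ChIP and input samples shared the same genotype, in which the transgene wgIs102 carries the gene with TY1, EGFP and FLAG tags together with unc119. The genotype label writes the background allele as unc327(ed3), and the description of the strain writes it as unc-119(ed3). The tagged gene is a transgene brought in by bombardment and not outcrossed, and whole embryos were used, so binding in single cell types was not resolved. The titles do not say whether the replicates were separate cultures. The 2 input samples have no peaks in what follows.

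Chromosome II had 3138 peaks in the list of replicate 1 and 1979 in that of replicate 2, of 20879 and 13776 nuclear peaks. The combined list gives every peak the same score, so peaks were ordered by the number in their name, the lowest first. That number is the authors', and no header says how it was set. Read depth is unknown, since the lists hold no counts.

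The 10 combined peaks of chromosome II with the lowest numbers show what the members look like. The first, at II:2997558-2998439, was number 1 of the whole combined list and number 1 in each replicate list. At 882 bp it was also the widest peak of the chromosome. II:12966232-12966587 came second, as number 11 (replicate numbers 12 and 18). After it came II:3782313-3782690 (number 15, replicate numbers 15 and 22), II:9268968-9269335 (number 19, replicates 26 and 25) and II:11288035-11288357 (number 23, replicates 34 and 30). All 5 were near the head of both replicate lists. Replicate orders parted further down, at II:14186894-14187232 (number 37, replicates 68 and 20), II:11535897-11536224 (number 47, replicates 58 and 29) and II:11571239-11571532 (number 65, replicates 70 and 217). The last were II:6417987-6418333 (number 71, replicates 121 and 31) and II:2335563-2335877 (number 82, replicates 99 and 115). Apart from the first, these peaks were 294 to 378 bp wide.

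Peaks were spread along the whole chromosome. The 15 full bins of 1 Mb, counted from the left end, held 15 to 28 combined peaks each, with a median of 20 and a mean of 20.5 ± 3.87 (SD over bins). In order from the left end they held 25, 22, 18, 19, 27, 15, 17, 20, 24, 18, 20, 28, 20, 18 and 17 peaks. The shorter bin at the right end held 3, where 6.05 would match the mean density of the nuclear chromosomes. The fullest bins were the twelfth (28 peaks, exact Poisson interval 18.6 to 40.5), the fifth (27 peaks, 17.8 to 39.3) and the first (25 peaks, 16.2 to 36.9). The emptiest full bins were the sixth (15 peaks, interval 8.4 to 24.7), the seventh and the fifteenth (17 peaks each, 9.9 to 27.2). These intervals cover counting error only. All include 22.3, the number that the mean density of the nuclear chromosomes gives 1 Mb.

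Of the 16 bins of chromosome II, 0 differed from that mean in a two-sided exact binomial test adjusted over all 103 bins of the 6 chromosomes, and 0 did so at an unadjusted p under 0.05. Over all chromosomes 3.88% of bins were called. The lowest adjusted p on chromosome II was 0.45, for the sixth bin, whose ratio to the mean density was 0.67. In the twelfth bin the density was 1.25 times the mean, with an adjusted p of 0.63 in the same exact test.

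**Figure D1:**
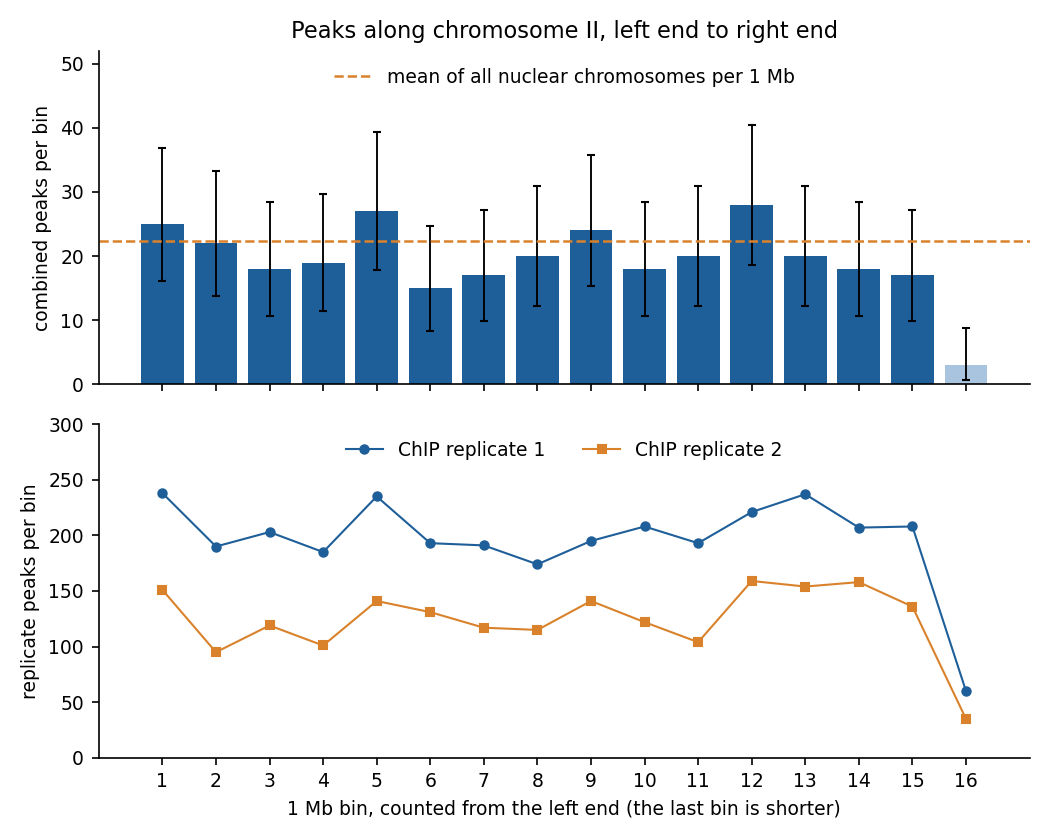
Peaks in 1 Mb bins along chromosome II, from the left end to the right. The upper panel shows combined peaks per bin with exact Poisson 95% intervals, and the dashed line marks the mean of the nuclear chromosomes, 22.3 peaks per Mb. The lower panel shows the peaks of each ChIP replicate in the same bins. Full bins range from 15 to 28 combined peaks, and every full bin's interval includes the dashed line. The last bin is shorter than 1 Mb and holds 3 combined peaks.

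In full bins of 1 Mb, the counts of chromosome II were the most even of the 6 chromosomes, but not in windows of 100 kb. The variance of the 1 Mb counts was 0.73 times the mean, where the others had 1.33 (III), 1.35 (V), 2.04 (IV), 2.27 (X) and 3.16 (I). The fullest full bin of chromosome II held 1.87 times as many peaks as the emptiest, against 2.11 to 3.89 times on the others. This comparison was added after the values were seen, and the difference between chromosomes was not tested. The order depended on the bin size. In bins of 500 kb chromosome II had 0.98 and the next chromosome 1.01. In windows of 100 kb it had 1.14, above V (1.03) and X (1.08). With 1 Mb bins it stayed the lowest when peaks within 2 kb were merged (0.73) and when bins were shifted by 500 kb (0.95). Values were higher in the replicates, with 2.04 in the first 2237 nuclear peaks of replicate 2 and 1.12 in those of replicate 1, where the other chromosomes had 2.34 to 4.04 and 1.26 to 3.77. All nuclear peaks of replicate 1 gave 1.90 on chromosome II and those of replicate 2 gave 3.44, and there chromosome II was not the lowest. Chromosome IV was lower in both, with 1.65 and 2.71, and V was lower in replicate 2, with 3.29.

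At the scale of 100 kb, 22 of the 152 full windows of chromosome II held no combined peak, which is 14.5%. The other chromosomes ranged from 9.33% on I to 19.5% on IV. A single peak lay in 40 windows, 2 peaks in 39, 3 in 29, 4 in 9 and 5 or more in 13. No more than 2 empty windows followed each other.

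For the arms, each chromosome, taken to end at its last peak in any of the lists, was divided into 3 equal sections, called here the left arm, the centre and the right arm. On chromosome II the left arm ran to 5090398, the centre from 5090399 to 10180795, and the right arm from 10180796 to 15271193. The left arm held 113 peaks, or 22.2 per Mb (exact Poisson interval 18.3 to 26.7). The centre held 97, or 19.1 per Mb (15.5 to 23.2), and the right arm 101, or 19.8 per Mb (16.2 to 24.1). The intervals of the 3 sections overlapped.

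Against all other parts of the genome, with the spread between stretches of about 1 Mb as the error, the left arm had a ratio of 0.99 (interval 0.73 to 1.35; quasi-Poisson F test, n = 102 stretches, adjusted p = 0.97 over the 18 sections of the genome). The centre had 0.85 (0.61 to 1.17; adjusted p = 0.62) and the right arm 0.88 (0.64 to 1.22; adjusted p = 0.67; n = 102 stretches in each fit). No section of chromosome II passed, where 5.56% of the 18 sections did, and none of the 3 had an unadjusted p under 0.05. Within the chromosome, the left arm was 1.16 times as dense as the centre (interval 0.80 to 1.69), the right arm 1.04 times (0.71 to 1.53), and the left arm 1.12 times as dense as the right (0.77 to 1.62). In the quasi-Poisson contrasts the adjusted p was 1.0 for each, and 0% of the 18 such contrasts in the genome passed. These intervals leave room for differences of up to about 1.69 times between the arms and the centre. With the outer 25% of the span at each end taken as the arms, both arms lay below the centre, at ratios of 0.97 and 0.94.

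As a whole, chromosome II had 20.4 peaks per Mb against 22.7 on the other 5 chromosomes, a ratio of 0.90 (interval 0.74 to 1.09; quasi-Poisson F test, n = 102 stretches, adjusted p = 0.27 over 6 chromosomes, of which 16.7% passed). Chromosomes V (20.7 per Mb), IV (20.0) and X (19.0) were near chromosome II. Denser were I (29.2), which passed, and III (26.8), which did not.

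**Figure D2:**
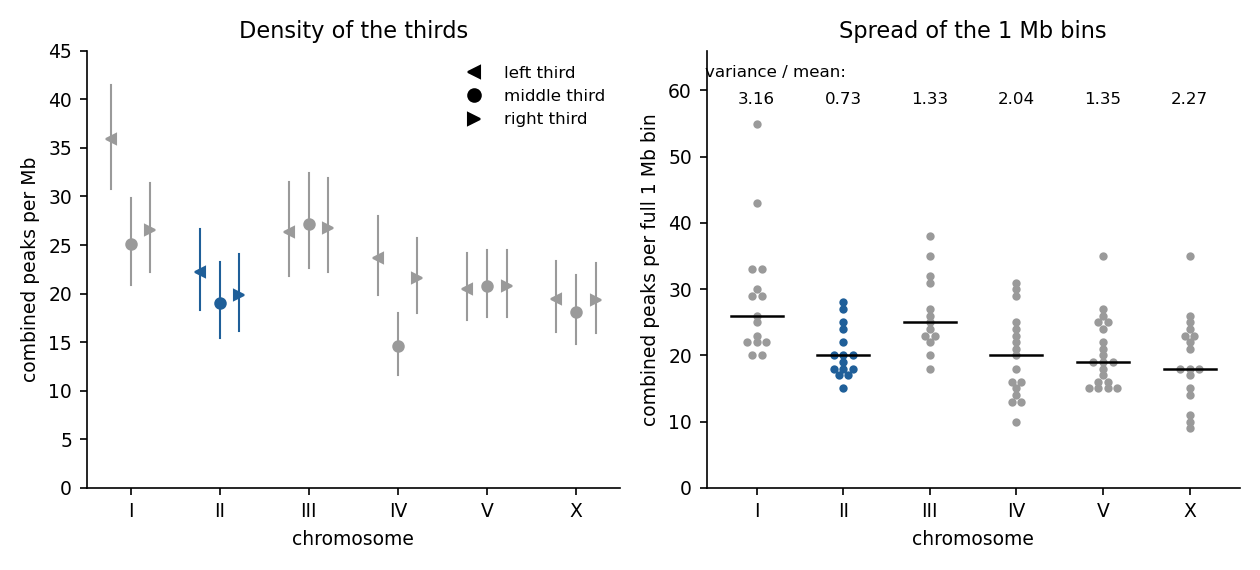
Combined peaks by chromosome, chromosome II in blue. The left panel gives peaks per Mb in the left, middle and right section of each chromosome, with exact Poisson 95% intervals. The right panel gives each full 1 Mb bin as a point, with the median as a line and the variance over the mean above it. The 3 sections of chromosome II lie at 22.2, 19.1 and 19.8 peaks per Mb, and its 1 Mb bins, from 15 to 28 peaks, have the lowest variance over mean at this bin size, 0.73.

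By density, the sections stood in another order in each replicate list than in the combined list, a difference that was not tested. The centre was the lowest in replicate 1, as in the combined list. Replicate 1 had 209 peaks per Mb in the left arm, 194 in the centre and 213 in the right arm. Replicate 2 had 121, 124 and 143, so its right arm was the fullest. The number of combined peaks per 100 replicate 1 peaks was 10.6 in the left arm, 9.82 in the centre and 9.31 in the right arm. Per 100 replicate 2 peaks it was 18.3, 15.3 and 13.9, so it was highest in the left arm and lowest in the right arm for both lists. Among the 18 sections of the genome, the left arm of chromosome II ranked number 11 and number 3 for these ratios and the right arm number 14 and number 16. These ratios were not tested.

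Over the 15 full bins, replicate 1 held 174 to 238 peaks and replicate 2 held 95 to 159. Their counts had a Spearman rho of 0.81 with each other, across bins, and the combined counts had 0.33 with replicate 1 and 0.28 with replicate 2. On the other chromosomes these values ran from 0.36 to 0.89, from 0.14 to 0.80 and from 0.42 to 0.70. The differences were not tested. Bins share a library and its mappable length and are not replicates. The extremes of the ratio to replicate 2, named after their values were seen, were the second and the fourteenth bin. The second held the fewest replicate 2 peaks of the full bins, 95, yet 22 combined peaks, or 23.2 per 100. In the fourteenth bin 158 replicate 2 peaks went with 18 combined peaks, or 11.4 per 100.

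Joining overlapping entries left 309 distinct regions on chromosome II, which covered 125 kb, or 0.822% of its span. One region, II:3959451-3959822, was entered in the list 2 times with identical limits, as numbers 163 and 373. The other joined region, II:1043982-1044662, came from numbers 331 and 2080. The median gap between neighbouring regions was 31.0 kb, with quartiles of 10.9 and 77.5 kb. Median gaps on the other chromosomes ran from 21.4 kb on I to 36.2 kb on X, and chromosome II lay between IV (27.5 kb) and V (33.5 kb). Its upper quartile was the longest of the 6, the next being 74.0 kb on X. Spacing was described without a test, since neighbouring gaps are not independent.

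The close end of the spacing held 16 gaps under 1 kb, or 5.19% of 308 gaps, where the other chromosomes had 2.62 to 4.87%. These gaps leave out overlapping entries, which were joined into 2 regions on chromosome II and into 4 to 10 on each of the others. Within 2 kb of another region lay 13.3% of the regions of chromosome II, against 10.1 to 17.6% elsewhere. The closest pair, numbers 1000 and 719, lay at II:3518777-3519256 and II:3519280-3519500, 23 bp apart. The next, numbers 234 and 258, lay at II:4394462-4394697 and II:4394769-4394988, 71 bp apart. At 119 bp followed numbers 1444 and 447, at II:4577081-4577300 and II:4577420-4577717. These pairs were named after their values were seen. Another region lay within 5 kb of 80 of the 309 regions, 25.9% (Wilson interval 21.3 to 31.0%), a share that ran from 24.4% on X to 33.8% on I elsewhere.

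The 5 longest gaps marked the peak-poor stretches. The longest, II:5031528-5311963, ran for 280 kb across the border of left arm and centre. It was followed by II:13481956-13738020 (256 kb), II:9828640-10074858 (246 kb), II:12483006-12716078 (233 kb) and II:4580385-4789742 (209 kb). Gaps over 200 kb numbered 6 on chromosome II, against 2 to 10 on the others, and none of the 6 reached the 455 kb of the longest gap on IV. From the last combined peak to the end of the span was a further 159 kb, the longest such end among the 6 chromosomes.

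These stretches were not empty in the replicate lists. The longest gap held 50 replicate 1 peaks and 32 replicate 2 peaks, or 178 and 114 per Mb. The gap at 13481956 held 49 and 40. The replicate peaks in the longest gap were not early ones in replicate 1, where the lowest number was 3259, but in replicate 2 one was number 683. Over all 42 gaps longer than 100 kb, which made up 40.5% of the span, replicate 1 peaks without a combined partner came to 180 per Mb, against 185 per Mb in the rest of the chromosome. For replicate 2 these densities were 105 and 112 per Mb. The share of these peaks that met the other replicate was 16.4% inside the long gaps and 17.4% outside for replicate 1, and 28.2% and 30.1% for replicate 2.

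**Figure D3:**
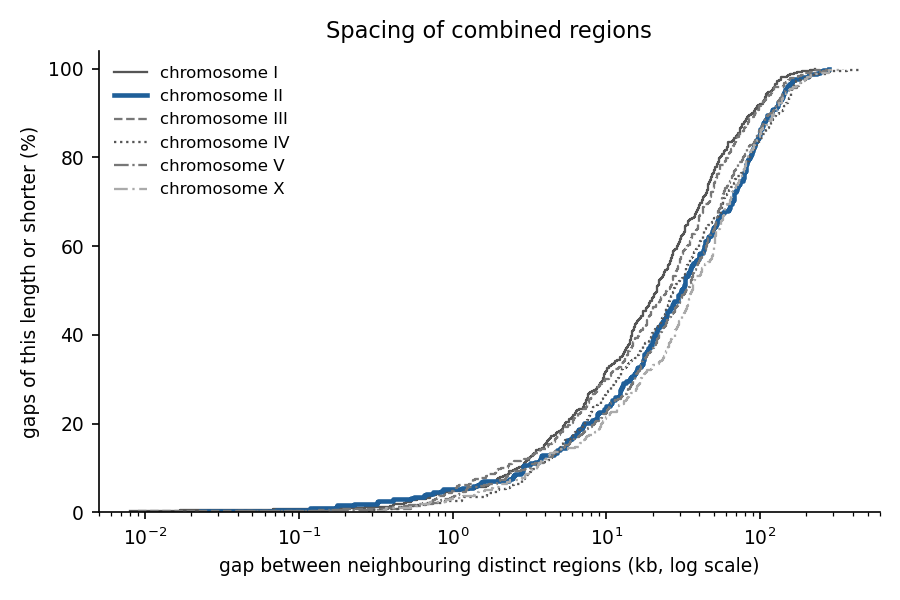
Cumulative share of gaps between neighbouring distinct combined regions, by chromosome, against gap length on a log scale in kb. The line of chromosome II (blue) has its median at 31.0 kb, between those of IV and V, and ends at its longest gap of 280 kb.

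The peak-rich stretches were short. The fullest fixed window of 100 kb, II:12900001-13000000, held 8 peaks, where the mean density gives 2.23. From left to right its peaks were numbers 1394, 2113, 11, 1953, 110, 2023, 478 and 200. They began at 12902547 and ended at 12993291, and 6 of the 8 had a replicate 2 partner. The same window held 33 replicate 1 and 24 replicate 2 peaks. Number 478 of this window, at II:12985730-12985926 and singled out after its values were seen, was number 35 in replicate 2 and number 2712 in replicate 1. The window at II:2900001-3000000 held 6 peaks, numbers 2026, 654, 880, 728, 1843 and 1. The first peak of the whole list thus had company: numbers 728 and 1843, at II:2995495-2995647 and II:2996516-2996995, lay just to its left, 1843 without a replicate 2 partner. The third window, II:11500001-11600000, held 6 peaks, numbers 47, 1701, 1439, 1512, 65 and 1380, all with a partner in replicate 2. The next windows held 5 peaks each.

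Widths fell into a fixed class and a varied one. Of the 311 peaks, 218 were exactly 480 bp wide, 92 were narrower and 1, number 1, was wider. The share at 480 bp was 70.1% (Wilson interval 64.8 to 74.9%) against 65.7% on the other chromosomes (Fisher's exact test, two-sided, adjusted p = 0.16 over 6 chromosomes, of which 33.3% passed). Chromosomes IV (70.8%), X (69.9%) and V (68.8%) were close to chromosome II. Those that passed, I (60.1%) and III (60.2%), had lower shares. Within chromosome II the share was 64.6% in the left arm, 72.2% in the centre and 74.3% in the right arm. These differences were not tested, and the order of the peaks, given below, also differed by section. The narrowest peaks were II:122931-123050 and II:5932131-5932250, at 120 bp each, and II:11297329-11297452 at 124 bp. Their combined numbers were 548, 783 and 683. The next widest after number 1 were tied at 480 bp, with II:1043982-1044461 (number 331) and II:8878048-8878527 (number 366) first among them.

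Width went with order. When the whole list was cut into 5 groups of equal size by number, 2 of the 52 chromosome II peaks in the first group were 480 bp wide, then 25 of 61, 61 of 67, 61 of 62 and 69 of 69. The median width was 258.5 bp in the first group and 197 bp in the second, then 480 bp. On the other chromosomes the shares were 1.52, 44.0, 87.9, 98.4 and 99.5%, each within the Wilson interval of chromosome II.

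Chromosome II held 12 of the first 100 peaks of the combined list, 26 of the first 224 and 64 of the first 559. The last counts were 11.6 and 11.4% of their parts of the list, where the chromosome had 13.9% of the whole list and 15.2% of the span. Its median number was 1163, with the other chromosomes between 997 (III) and 1246 (X). Of its peaks 47.9% (Wilson interval 42.4 to 53.5%) were in the lower-numbered 50% of the list, against 50.3% of the others (Fisher's exact test, two-sided, adjusted p = 0.56; 0% of the 6 chromosomes passed, and chromosome II had an unadjusted p of 0.46).

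By section, the right arm had the smallest share of low numbers. In the lower-numbered 50% were 61 of 113 peaks of the left arm (54.0%; Wilson interval 44.8 to 62.9%), 50 of 97 in the centre (51.5%; 41.7 to 61.2%) and 38 of 101 in the right arm (37.6%; 28.8 to 47.4%). Median numbers were 991, 1089 and 1357. The right arm nevertheless held 5 of the 10 lowest-numbered peaks listed above. Of all other peaks of the genome, 50.6% were in the lower-numbered 50%. A test added after this was seen did not pass (Fisher's exact test, two-sided, unadjusted p = 0.014, adjusted p = 0.19 over 18 sections, of which 0% passed). Ordered by the number of their replicate 2 partner instead, over the peaks with one, the shares were 44.6% in the left arm, 51.3% in the centre and 43.7% in the right arm. The left arm then lay below the other peaks of the genome (50.3%) and close to the right arm. By the replicate 1 number the shares were 50.4, 56.7 and 40.6%.

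Support by the replicates was counted as an overlap of at least 1 bp. All 311 combined peaks of chromosome II overlapped a replicate 1 peak, and 266 also overlapped a replicate 2 peak. On the other chromosomes 1923 of 1926 combined peaks overlapped a replicate 1 peak. The combined list and the replicate lists come from the same experiment, and an overlap of the combined list with either replicate is therefore no independent evidence of binding. The share with a replicate 2 partner was 85.5% (Wilson interval 81.2 to 89.0%) against 87.5% on the other chromosomes (86.0 to 88.9%; Fisher's exact test, two-sided, adjusted p = 0.38, 0% of 6 chromosomes called and 0 at an unadjusted p under 0.05). The other chromosomes ranged from 85.0% on V to 89.6% on X. With a reciprocal overlap of 50% the shares were 62.1% on chromosome II and 59.3% elsewhere, so the direction turned.

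By section, 101 of 113 peaks in the left arm had a replicate 2 partner (89.4%), 78 of 97 in the centre (80.4%; Wilson interval 71.4 to 87.1%) and 87 of 101 in the right arm (86.1%). At this overlap the centre had the lowest share of all 18 sections of the genome. With a reciprocal overlap of 50% it was above the rest, 61.9% against 59.6%. The centre's share at 1 bp did not pass after adjustment (Fisher's exact test, two-sided, unadjusted p = 0.043, adjusted p = 0.46, 0% of 18 sections called). By full 1 Mb bin the share ran from 72.2% in the tenth bin, where 5 of 18 peaks lacked a partner, to 100% in the fourth, with 19 of 19, both named after their values were seen.

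Support fell with the order. In the 5 groups by number, 52 of 52 chromosome II peaks had a replicate 2 partner in the first, then 55 of 61, 60 of 67, 53 of 62 and 46 of 69. The last share was 66.7% (Wilson interval 54.9 to 76.6%), and it was 73.3% on the other chromosomes, inside that interval.

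**Figure D4:**
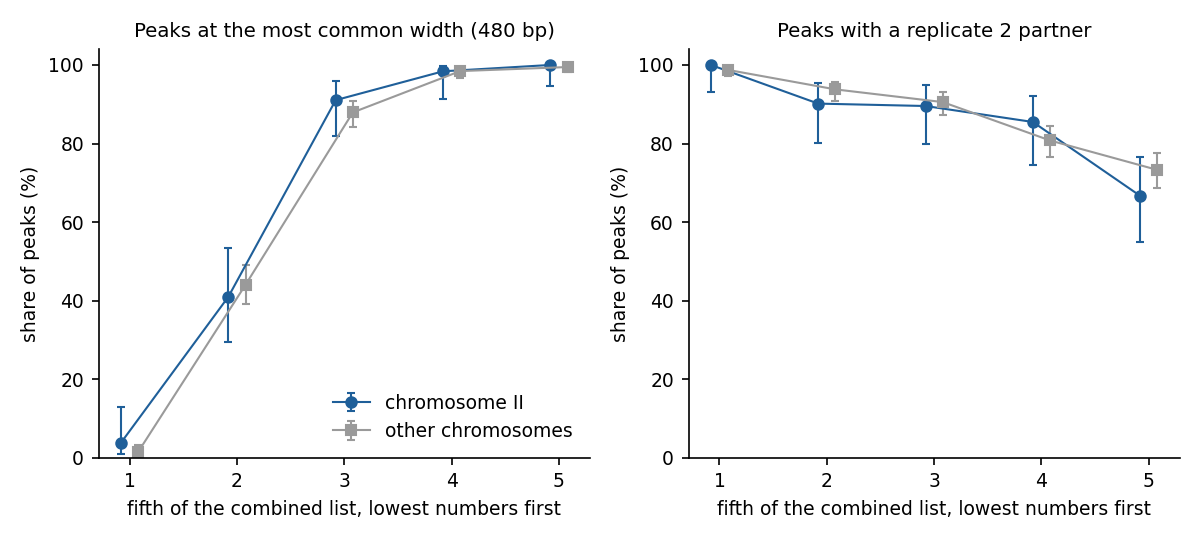
Share of combined peaks in 5 groups by number, lowest numbers first, for chromosome II (blue) and the other chromosomes (grey), with Wilson 95% intervals. The left panel gives peaks exactly 480 bp wide, which rise from 3.85% to 100% on chromosome II. The right panel gives peaks with a replicate 2 partner, which go from 100% to 66.7%.

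The 45 peaks without a replicate 2 partner had a median number of 1830, against 1076 for the 266 with one. On the other chromosomes these medians were 1666 and 1014. Of the 45 peaks, 42 (93.3%) were 480 bp wide, against 66.2% of the 266. Elsewhere 222 of 240 peaks without a partner (92.5%) had that width, and 61.9% of those with one. The median replicate 1 number of the 45 peaks was 1407. The first of them were II:8731368-8731536 (number 589, replicate 1 number 320), II:11654493-11654624 (number 617, replicate 1 number 385) and II:9382369-9382848 (number 834, replicate 1 number 813). The nearest replicate 2 peak was a median of 1825 bp away, from 7 to 15779 bp, and for 13 of the 45 it lay within 500 bp. On the other chromosomes 29 of 240 such peaks had one that close, a difference that was not tested.

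Partners differed in how far up their own list they stood. In replicate 1, 308 of the 311 partners carried that list's highest score, which many peaks share. The share was nearly the same on the other chromosomes, where 1900 of 1923 partners carried it. In replicate 2, 188 of 266 did (70.7%; Wilson interval 64.9 to 75.8%), and on the other chromosomes 73.9% did. Across peaks of chromosome II the combined number had a Spearman rho of 0.83 with the replicate 1 number and 0.56 with the replicate 2 number, and both replicate numbers had 0.25 with each other over 266 peaks. The other chromosomes had 0.86 to 0.90, 0.49 to 0.61 and 0.20 to 0.38. These values describe peaks of the same libraries and carry no test.

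**Figure D5:**
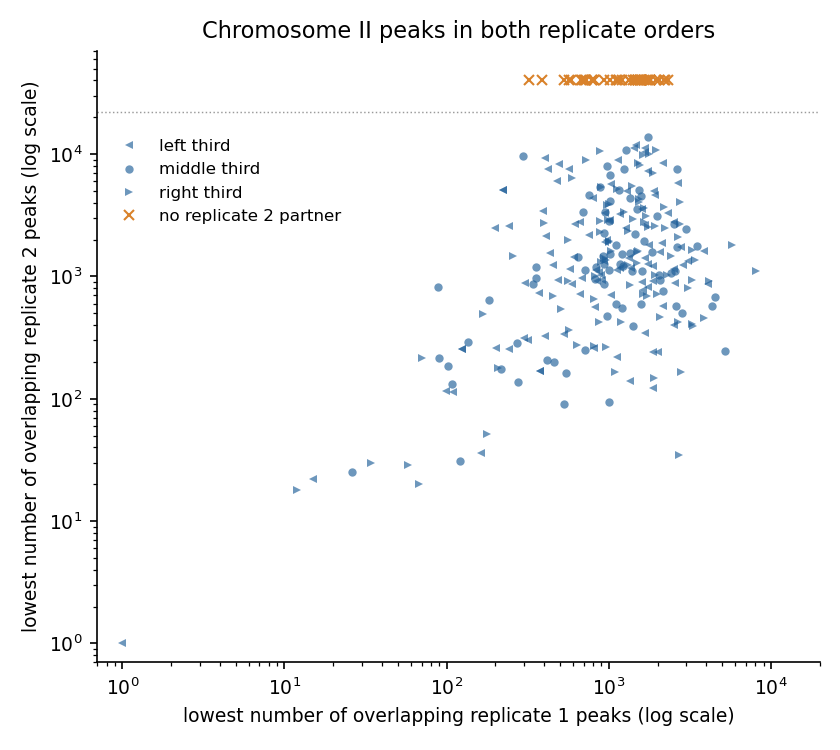
Each combined peak of chromosome II by the lowest number among its overlapping replicate 1 peaks (horizontal, log scale) and replicate 2 peaks (vertical, log scale), with the section of the chromosome as the symbol. Crosses at the top are the 45 peaks without a replicate 2 partner. The lowest numbers lie near each other in both lists, as for number 1 in both, and later numbers are widely scattered, with a rho of 0.25 over the 266 peaks in both lists.

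Both replicates also shared places on chromosome II that the combined list lacks. Of the replicate 1 peaks of the chromosome, 765 (24.4%; Wilson interval 22.9 to 25.9%) overlapped a replicate 2 peak, and 476 of these met no combined peak. Of the replicate 2 peaks, 800 (40.4%; 38.3 to 42.6%) overlapped a replicate 1 peak, and 489 of these met no combined peak. The shares that overlapped the other replicate were 24.0 to 29.7% and 40.3 to 43.8% on the other chromosomes. Of the overlapping replicate 1 peaks, 37.8% met a combined peak on chromosome II and 38.3% over all nuclear chromosomes. For replicate 2 these shares were 38.9% and 39.8%, so chromosome II was close to the whole list.

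Among the earliest replicate peaks with no combined partner, the lists had 1 place in common. In replicate 1 they were II:2815502-2815885 (number 1212), II:7812172-7812555 (number 1362) and II:8502199-8502582 (number 1453). In replicate 2 they were II:11535580-11535735 (number 98), II:2815911-2816510 (number 357) and II:9308640-9309239 (number 387). Number 98 lay 161 bp from combined number 47. Number 1212 of replicate 1 and number 357 of replicate 2 lay 25 bp apart without touching, at that place, and number 357 met a later replicate 1 peak, number 4049. The nearest combined peak was 53.3 kb from both.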

How the data were processed

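The data were 3 deposited peak lists, 1 for each ChIP sample and 1 called combined. The peaks carry the source name spp_via_IDR, and the build is WS220, per the file headers and source column. The deposited score of each peak has no stated unit. How the lists were combined, with which versions, thresholds and read filters, is not given in the sources used. Chromosome II was proposed, and the tests were chosen, with earlier results of these data known. Peaks were placed by midpoint, and spans ran to the last peak of any list. Counts in stretches of about 1 Mb were fitted by quasi-Poisson regression, bins by exact binomial tests, and shares by Fisher's exact tests, all two-sided, on the whole nuclear list, with Benjamini-Hochberg adjustment and a threshold of 0.05. The binomial and Fisher tests take peaks as independent. The combined list has no replicate of its own, so p-values weigh places along the genome. The scripts were tested on simulated data. The regions named were the 10 lowest-numbered peaks, the 3 fullest and 3 emptiest bins, the 5 longest gaps, the 3 fullest windows of 100 kb, the 3 widest and 3 narrowest peaks, the first 3 without a replicate 2 partner, and the first 3 peaks of each replicate list without a combined partner. Other regions are marked as named after their values were seen. Python 3.11.15, numpy 2.4.6, pandas 2.3.3, scipy 1.17.1 and statsmodels 0.14.6 were used. No sequence or gene annotation of WS220 was used here. The gene table at hand, of build WBcel235, gave only the symbol zip-8.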

Additional observations from a re-analysis of the deposited data

How the results depend on the processing

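Of the 16 tested results on chromosome II, 0 passed the threshold as reported, and 0 of their 69 values under other settings did, the lowest adjusted p being 0.083, for the density of the chromosome in the exact binomial test. Directions turned in 14 of the 69. Where a replicate was left out, the combined list was not rebuilt. In density and bin counts, the first 2237 nuclear peaks of the other replicate's list took its place. For order, the combined peaks were kept and ordered by the number of their partner in the other replicate, over the peaks with one. For densities, the left arm had a ratio of 1.08 in the lower-numbered 50% and 0.84 to 1.01 with a replicate left out. With the outer 25% at each end as arms, left and right over centre were 0.97 and 0.94. With a replicate left out they were 0.94 to 1.08 and 0.84 to 1.03, and left over right was 0.91 to 1.29. Replicate 2 support with a reciprocal overlap of 50% was 62.1% on the chromosome against 59.3% elsewhere, 61.9% in the centre against 59.6% and 63.4% in the right arm against 59.6%. With the lower-numbered 50% of replicate 2 it was 79.6% in the left arm against 80.3%. The share in the first 25% of the list was 23% in the left arm and 21.6% in the centre, each against 25.1% of all other peaks. In the right arm it was 16.8% against 25.4%, a direction that did not turn. With a replicate left out, the share in the lower-numbered 50% was 44.6 to 50.4% in the left arm. It was 51.3 to 56.7% in the centre and 40.6 to 43.7% in the right arm. The share of regions with another nearby necessarily rises with the distance allowed. It was 13.3% within 2 kb and 41.7% within 10 kb, where the other chromosomes had 36.4 to 51.7% within 10 kb. The causes of the turned directions were not tested. The number of called bins on chromosome II was 0 in all 5 other settings. Over all chromosomes it was 2 of 103 with peaks within 2 kb merged and 3 of 106 with shifted bins. It was 3 of 203 in bins of 500 kb, 13 of 103 without replicate 1 and 4 of 103 without replicate 2. In the exact binomial test, 2 of 16 bins of chromosome II had an unadjusted p under 0.05 without replicate 1. In bins of 500 kb 1 of 31 did, and in the remaining settings 0 did. No paired analysis was possible because the input samples have no lists here, so no replicate block could be fitted. Unknown depth limits all values.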
